A study of Mus musculus with 16 samples.

Results

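Levels of 38 genes of blood and lymphatic vessel endothelium and of angiogenesis were examined in bulk RNA-seq of mouse pancreas. The genes were chosen by symbol as a list, and all 38 were among the 24411 gene symbols counted. All 38 also passed the filter on low counts, which left 13660 genes to be tested. The question was how their levels differed between lean and obese mice, between treated and untreated obese mice, between batches and from mouse to mouse with the islet and fat content of the sample.

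The libraries held polyA RNA from an aliquot of pulverized pancreas of 16 male C57BL6/J mice, 1 library per mouse, all aged 12 weeks. WT mice (5) were lean and drank control water. *Lep*(ob/ob) mice (7), which lack functional leptin in the whole body and become obese, also drank control water. A further 4 *Lep*(ob/ob) mice received a cholecystokinin (CCK) receptor antagonist in the drinking water for 6 weeks (CCKRi-treated), of which 2 had proglumide (0.1 mg/ml) and 2 had lorglumide (0.05 mg/ml). Both drugs block CCK at its receptors, and they were pooled here. Mean body weight (± SD) was 27.7 ± 3.22 g for WT, 51.0 ± 1.98 g for *Lep*(ob/ob) and 54.8 ± 2.22 g for CCKRi-treated animals. *Lep*(ob/ob) animals were purchased. The sources differ on WT animals, which came from in-house breeding per the labels and were purchased per the study's methods, so a difference in colony is possible. Genotype and body weight cannot be told apart.

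Endothelial cells line every vessel. VEGF-A, made by many cell types, acts through the receptor VEGFR2 (*Kdr*), while VEGFR1 (*Flt1*) binds the same ligand tightly with weak signalling of its own and also exists as a secreted decoy. The receptor Tie2 (*Tek*) is activated by angiopoietin-1, and angiopoietin-2 often opposes it. Islets of the pancreas are known for a dense bed of fenestrated capillaries, and adipose tissue and the exocrine pancreas have capillary beds of their own. The 38 genes were grouped by role as VEGF signalling (*Vegfa*, *Kdr*, *Flt1*, *Flt4*), angiopoietins and Tie receptors (*Angpt2*, *Tek*, *Tie1*, *Ptprb*), apelin (*Apln*, *Aplnr*), transcription factors (*Erg*, *Sox7*, *Sox17*, *Sox18*, *Tal1*), junction and surface glycoproteins (*Pecam1*, *Cdh5*, *Cldn5*, *Esam*, *Icam2*, *Emcn*, *Cd34*, *Podxl*, *Cd93*, *Clec14a*, *Robo4*, *Ecscr*, *Rasip1*, *Mmrn2*), signalling and capillary function (*Eng*, *S1pr1*, *Nos3*, *Plvap*, *Gpihbp1*, *Vwf*, *Egfl7*, *Esm1*) and lymphatic endothelium (*Lyve1*). In bulk tissue, fewer endothelial cells and less RNA of a gene per cell cannot be told apart.

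Each library held 9.87 to 34.5 M counts. The labels give 2 batches, called A and B here. In batch A were 3 WT and 4 *Lep*(ob/ob) animals, and in batch B the other 2 WT, 3 *Lep*(ob/ob) and all 4 CCKRi-treated animals, so treatment and batch overlap and the batch term rests on the untreated mice. Acinar genes, which mark the exocrine pancreas, were abundant in every library, where 8 markers summed to between 71510 and 592700 CPM. CPM are counts per M counts after TMM scaling of the library sizes, so they are not shares of a library's counts. Samples differed in admixed tissue. The fat marker *Adipoq* ranged from 5.99 to 22.9 CPM in WT, from 7.54 to 210.5 CPM in *Lep*(ob/ob) and from 28.2 to 133.1 CPM in CCKRi-treated mice. The highest value was that of *Lep*(ob/ob) mouse 463. The insulin gene *Ins2* ranged from 481 to 719 CPM in WT, from 1253 to 6617 CPM in *Lep*(ob/ob) and from 518 to 6476 CPM in CCKRi-treated mice.

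Every one of the 38 genes had reads in every mouse. The fewest reads in all were those of the transcription factor *Tal1* (252 over the 16 libraries), and the fewest in 1 library were the 4 reads of *Angpt2* in each of 2 WT mice. The defining endothelial genes *Pecam1* (CD31) and *Cdh5* (VE-cadherin) had at least 400 and 159 reads in each library. Levels were compared between genes as CPM per kb of merged exons. On that scale, *Plvap*, which forms the diaphragms of fenestrated capillaries, was the highest in WT at 19.3 ± 5.74 CPM per kb (SD, n = 5), followed by *Vegfa* at 18.4 ± 8.42 CPM per kb, which do not differ beyond their spread. The sialomucin *Podxl* (7.52 ± 0.699 CPM per kb), *Pecam1* (6.94 ± 0.325 CPM per kb) and the TGF-β co-receptor *Eng* (6.70 ± 1.60 CPM per kb) came next and were likewise within each other's spread. *Kdr* stood at 3.64 ± 0.674 CPM per kb and *Flt1* at 2.06 ± 0.263 CPM per kb. The lowest level was that of *Angpt2* (0.167 ± 0.0764 CPM per kb), and the mean of the highest gene was 115.7 times that of the lowest. The sum over the 38 genes was 519 to 619 CPM in WT, 461 to 772 CPM in *Lep*(ob/ob) and 478 to 535 CPM in CCKRi-treated mice. *Vegfa*, which cells other than endothelium also make, is part of these sums. Without mouse 463, the highest *Lep*(ob/ob) sum was 589 CPM.

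**Figure D1:**
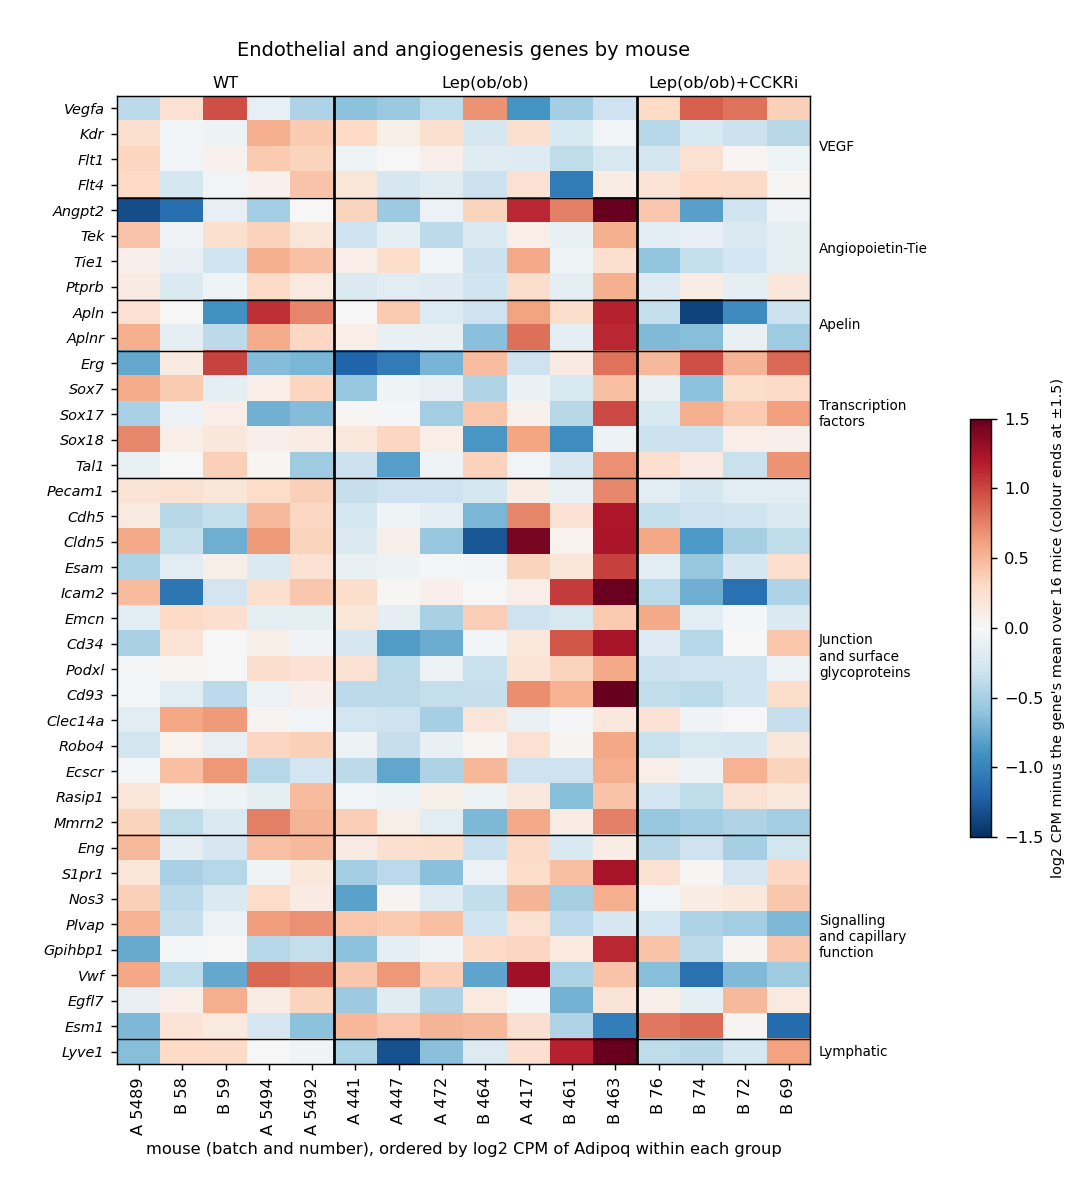
Heatmap of log2 CPM of the 38 genes minus each gene's mean over all 16 mice. Rows are grouped by role and mice are ordered by log2 CPM of *Adipoq* within each group, with the batch letter before the mouse number. Mouse 463 at the right edge of the *Lep*(ob/ob) block is red for most genes outside the VEGF group, and *Esm1* runs the other way.

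Promoters are shown for 3 genes picked from the results below. *Flt1* was the gene of the 38 that edgeR called between WT and untreated *Lep*(ob/ob) mice, though not firmly. *Cd34* moved with *Adipoq*, and *Esm1* moved against it. The promoters are those of RefSeq on build GRCm38.p6, from 250 bases before to 50 after the start of the transcript, printed 5′ to 3′ on the strand of the gene. Capitals mark AGGAAG, or CTTCCT where it lies on the other strand, a hexamer that holds the core bound by ETS factors such as ERG. *Flt1* lies on chr5:147725962-147726261 (minus strand), *Cd34* on chr1:194938571-194938870 (plus strand) and *Esm1* on chr13:113209409-113209708 (plus strand).
Flt1: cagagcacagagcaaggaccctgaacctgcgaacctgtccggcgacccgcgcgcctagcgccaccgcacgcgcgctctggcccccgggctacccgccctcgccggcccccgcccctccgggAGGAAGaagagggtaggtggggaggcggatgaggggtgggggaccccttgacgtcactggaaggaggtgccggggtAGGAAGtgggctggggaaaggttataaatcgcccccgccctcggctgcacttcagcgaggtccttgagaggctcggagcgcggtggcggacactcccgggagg
Cd34: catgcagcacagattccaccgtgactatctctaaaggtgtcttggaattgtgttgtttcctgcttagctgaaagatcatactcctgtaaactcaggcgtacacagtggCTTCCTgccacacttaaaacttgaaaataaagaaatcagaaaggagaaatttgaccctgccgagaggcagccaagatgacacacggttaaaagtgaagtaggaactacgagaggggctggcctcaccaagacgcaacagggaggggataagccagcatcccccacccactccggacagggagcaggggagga
Esm1: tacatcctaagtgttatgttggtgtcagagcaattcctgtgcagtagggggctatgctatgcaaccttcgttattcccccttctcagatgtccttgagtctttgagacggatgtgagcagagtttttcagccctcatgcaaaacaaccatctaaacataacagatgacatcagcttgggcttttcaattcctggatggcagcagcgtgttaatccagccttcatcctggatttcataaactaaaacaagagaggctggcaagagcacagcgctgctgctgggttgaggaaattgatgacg
The hexamer occurred 2 times before the start of *Flt1*, the nearer one 53 bases away, and 1 time on the other strand, 142 bases before the start of *Cd34*. The *Esm1* window held no match. Of the 38 genes, 18 had an entry in the promoter table, with 24 promoters between them, and 11 of these 24 held the ETS hexamer on either strand, against 35.4% of all 32851 promoters of the same length. The SOX motif ACAATG (reverse CATTGT) was found in 1 of the 24 and in 12.6% of all promoters, and the GATA motif AGATAA (reverse TTATCT) in 4 of the 24 and in 11.2% of all. These matches describe the sequence only, and nothing was drawn from them about the factors.

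Obese and lean mice were compared first. Of the 38 genes, 1 was lower in *Lep*(ob/ob) than in WT mice at an adjusted p under 0.05 and 0 were higher (edgeR quasi-likelihood test with batch in the model, Benjamini-Hochberg adjustment over all genes tested). Over all genes, 3.14% were called lower and 5.93% higher. The median log2 fold change was -0.013 over the 38 genes and -0.018 over all genes. At an unadjusted p under 0.05, 3 of the 38 were lower and 2 higher, beside 1583 and 1662 of all 13660 genes. DESeq2 called *Flt1* lower and *Angpt2* higher, among 1695 genes it called in all.

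The gene that fell was *Flt1*, which encodes VEGFR1 (chromosome 5, 147561604 to 147726011, minus strand, 33 merged exons on GRCm38). It had 29.8, 30.1 and 31.2 CPM in the WT mice of batch A and 23.2 and 24.9 CPM in those of batch B. In *Lep*(ob/ob) mice it had 20.8, 22.8, 23.8 and 25.2 CPM in batch A and 18.3, 20.1 and 20.9 CPM in batch B. Within each batch, every *Lep*(ob/ob) mouse was below every WT mouse, although the pooled groups overlapped. The log2 fold change was -0.35 (standard error 0.10, adjusted p = 0.0317, edgeR). *Flt1* was the 1 gene of the 38 with its groups apart in this direction in both batches, a pattern found in 3.70% of all genes, and 0 of the 38 showed it in the other direction, found in 4.97% of all. Fitted in batch A alone, edgeR gave a log2 fold change of -0.34 (adjusted p = 0.0388, with 1.93% of all genes lower in that fit), against -0.31 (adjusted p = 0.424) in batch B alone. The difference is small and its call was not firm: it was kept in 14 of 28 alternative fits, with log2 fold changes from -0.38 to -0.20 and adjusted p values from 0.00576 to 0.840, and it was lost when any 1 of the 5 WT mice or *Lep*(ob/ob) mouse 417, 441, 447 or 461 was left out. Gene counts do not separate the membrane receptor from the secreted form.

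The other genes of VEGF signalling had negative fold changes that did not pass. *Kdr* had 33.0, 36.6 and 40.8 CPM in WT mice of batch A and 27.3 and 26.6 CPM in batch B, against a lowest value of 23.4, a median of 29.7 and a highest of 34.5 CPM in *Lep*(ob/ob) mice (log2 fold change -0.15, standard error 0.09, adjusted p = 0.309, edgeR). *Vegfa* had 54.1, 51.7 and 65.3 CPM in WT mice of batch A and 83.1 and 139.3 CPM in batch B, against 38.2, 49.96 and 113.3 CPM (lowest, median and highest) in *Lep*(ob/ob) mice (log2 fold change -0.42, standard error 0.20, adjusted p = 0.225, edgeR). For both genes the groups overlapped. The lymphatic receptor gene *Flt4* had 4.55 ± 0.875 CPM (SD, n = 5) in WT and 3.80 ± 1.03 CPM (SD, n = 7) in *Lep*(ob/ob) mice.

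Of the angiopoietin and Tie genes, *Tek* had 13.4, 11.3, 12.7, 9.60 and 11.7 CPM in WT mice and 7.57, 9.03 and 14.4 CPM (lowest, median and highest) in *Lep*(ob/ob) mice (log2 fold change -0.29, standard error 0.15, adjusted p = 0.245, edgeR). Its highest *Lep*(ob/ob) value was that of mouse 463. *Angpt2*, the Tie2 ligand made by endothelial cells themselves, had the largest change of the 38 in this comparison, 1.33 on the log2 scale (standard error 0.44, adjusted p = 0.0679, edgeR). It rested on few reads, with 0.303 to 0.936 CPM in WT and 0.605 to 3.93 CPM in *Lep*(ob/ob) mice, which overlapped. Angiopoietin-1 itself was not among the 38 genes and is given with the further pathway genes below.

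The 14 junction and surface genes had log2 fold changes from -0.35 to 0.45 and the 8 signalling and capillary genes from -0.41 to 0.52, and 0 of them passed in either direction (edgeR, with 1 and 2 at an unadjusted p under 0.05). *Pecam1* had 41.9, 46.3, 44.1, 42.5 and 41.2 CPM in WT mice, the narrowest range of the 38 genes in that group (1.12-fold). In *Lep*(ob/ob) mice it had 28.4, 30.2 and 59.8 CPM (lowest, median and highest), and 6 of the 7 mice lay below every WT mouse. Mouse 463 was the exception, and the log2 fold change was -0.29 (standard error 0.16, adjusted p = 0.267, edgeR). Without mouse 463, edgeR called *Pecam1* and *Tek* lower beside *Flt1*, 3 of the 38 genes where 2.55% of all genes were lower. *Cdh5* had 21.3, 24.1, 27.3, 14.5 and 15.2 CPM in WT mice and 12.0, 18.5 and 44.9 CPM (lowest, median and highest) in *Lep*(ob/ob) mice (log2 fold change 0.21, adjusted p = 0.696, edgeR). Mouse 463 was again the highest, and the log2 fold change was -0.03 without it. The sign of *Cdh5* also turned in batch A alone (-0.12) and with *Adipoq* as a covariate (-0.31).

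*Plvap* had 43.6, 48.9, 47.0, 23.9 and 28.6 CPM in WT mice and 23.0, 35.4 and 41.4 CPM (lowest, median and highest) in *Lep*(ob/ob) mice (log2 fold change -0.19, standard error 0.09, adjusted p = 0.242, edgeR). *Gpihbp1*, which carries lipoprotein lipase to the capillary lumen, had 2.05, 2.74, 2.61, 3.48 and 3.53 CPM in WT mice and 2.27, 3.91 and 7.86 CPM (lowest, median and highest) in *Lep*(ob/ob) mice (log2 fold change 0.52, standard error 0.22, adjusted p = 0.155, edgeR). *Lyve1*, a hyaluronan receptor of lymphatic endothelium and of some macrophages, had 7.58, 11.4, 11.9, 14.5 and 14.5 CPM in WT mice and 4.70, 10.3 and 40.1 CPM (lowest, median and highest) in *Lep*(ob/ob) mice (log2 fold change 0.19, adjusted p = 0.777, edgeR). All 3 overlapped between the groups. *Lyve1* and *Gpihbp1* were highest in mouse 463, without which their log2 fold changes were -0.0091 and 0.38. The sign of *Lyve1* also turned in batch A alone (-0.16) and with *Adipoq* as a covariate (-0.46). The 5 transcription factors had log2 fold changes from -0.39 to 0.52, and both apelin genes from 0.03 to 0.09, with 0 of these 7 past an unadjusted p of 0.05 (edgeR).

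The spread within a group differed from gene to gene. In *Lep*(ob/ob) mice the highest value was 1.38 times the lowest for *Flt1* and 1.47 times for *Kdr*, but 8.54 times for *Lyve1*, 8.10 times for *Cldn5*, 6.50 times for *Angpt2*, 4.26 times for *Cd93* and 4.25 times for *Cd34*. Mouse 463 was the highest for these genes other than *Flt1*, *Kdr* and *Cldn5*. The next mouse had 26.5 CPM of *Lyve1*, 2.18 CPM of *Angpt2*, 24.4 CPM of *Cd93* and 67.0 CPM of *Cd34*.

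**Figure D2:**
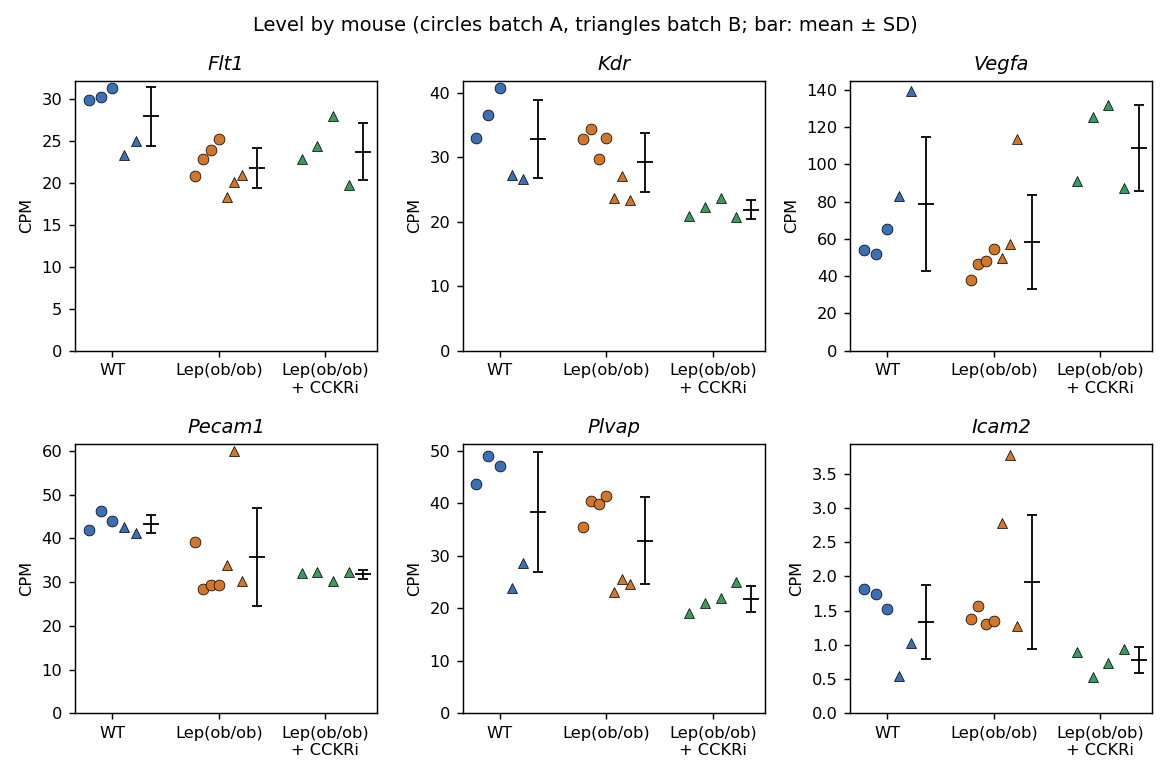
CPM of 6 genes in each mouse, with circles for batch A, triangles for batch B and the mean ± SD of each group beside its points. *Flt1* is lower in *Lep*(ob/ob) than in WT mice within each batch, *Pecam1* shows 1 high *Lep*(ob/ob) mouse at 59.8 CPM, and *Plvap* and *Kdr* separate by batch.

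Of 37 further genes of the pathway, 35 passed the low-count filter, of which 1 was higher and 2 were lower in *Lep*(ob/ob) mice, beside the 5.93% and 3.14% of all genes. *Bcl6b*, a transcriptional repressor of endothelial cells, had 0.758 to 1.64 CPM in WT and 1.72 to 3.70 CPM in *Lep*(ob/ob) mice, with no overlap (log2 fold change 1.26, standard error 0.26, adjusted p = 0.00597, edgeR). *Angpt1*, the activating ligand of Tie2, had 11.01 to 15.3 CPM in WT and 3.97 to 10.9 CPM in *Lep*(ob/ob) mice, also with no overlap (log2 fold change -0.68, standard error 0.20, adjusted p = 0.0485, edgeR). *Pgf*, placental growth factor and a ligand of VEGFR1, had 3.26 to 8.34 CPM in WT and 1.64 to 4.85 CPM in *Lep*(ob/ob) mice, which overlapped (log2 fold change -0.74, standard error 0.22, adjusted p = 0.0485, edgeR). Over all genes, 4.04% had no overlap between these groups in either direction. In the same comparison 6 of 10 islet markers were higher, *Ins2* by 2.49 on the log2 scale (adjusted p = 0.00327, edgeR). Of the other cell type markers, *Cfd* of adipocytes (-3.15) and *Ptf1a* of acinar cells (-1.03) were called lower and *Krt7* of ducts (1.03) higher. The rest of their lists was uncalled and mostly did not follow them. *Adipoq* (1.43), *Plin1* (1.74), *Cidec* (2.24) and *Lipe* (1.56) were positive and *Retn* was at -0.10. *Krt19* (-0.50), *Cftr* (-0.53), *Sox9* (-0.32) and *Spp1* (-0.11) were negative, and the other acinar markers ran from -0.36 to 0.18. The part of these markers in the endothelial values was not tested. With *Ins2* as a covariate the log2 fold change of *Flt1* was -0.31 (adjusted p = 0.193, edgeR), and with *Ins2* and *Adipoq* it was -0.20 (adjusted p = 0.840). *Ins2* did not overlap between these groups (481 to 719 CPM in WT, 1253 to 6617 CPM in *Lep*(ob/ob) mice). Fold changes at an equal level of *Ins2* are therefore extrapolated.

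Treated obese mice were set against untreated ones in the same model. None of the 38 genes (0) was called in either direction, against 0.0586% of all genes (edgeR). DESeq2 also called 0 of the 38, among just 92 genes it called in all. At an unadjusted p under 0.05, 8 were lower and 2 higher, beside 921 and 1030 of all 13660 genes. The median log2 fold change of the 38 was -0.19, against -0.011 over all genes. This comparison and the one above share the *Lep*(ob/ob) mice, so their values are given side by side and were not related to each other.

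The smallest p was that of *Icam2*, an adhesion molecule of endothelial and blood cells. It had 0.897 and 0.528 CPM in the proglumide mice and 0.729 and 0.944 CPM in the lorglumide mice, against a lowest value of 1.28, a median of 1.38 and a highest of 3.77 CPM in untreated *Lep*(ob/ob) mice. The groups did not overlap, and the log2 fold change was -1.41 (standard error 0.42, adjusted p = 0.241, edgeR). *Icam2* and the peptide ligand gene *Apln* were the 2 genes of the 38 that lay below every untreated mouse, a pattern found in 2.53% of all genes, but for *Apln* the margin was narrow (at most 1.526 against at least 1.533 CPM). Within batch B alone the log2 fold change of *Icam2* was -1.72 (standard error 0.42, adjusted p = 0.327, edgeR). WT mice had 0.549 to 1.82 CPM of *Icam2* and overlapped both groups.

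For the genes of VEGF signalling the treated mice gave 22.8 and 24.3 CPM of *Flt1* with proglumide and 27.9 and 19.7 CPM with lorglumide (log2 fold change against untreated mice 0.29, standard error 0.12, adjusted p = 0.311, edgeR). *Kdr* was at 20.9 and 22.3 CPM with proglumide and 23.7 and 20.7 CPM with lorglumide. *Vegfa* was at 90.9 and 125.3 CPM with proglumide and 132.0 and 87.1 CPM with lorglumide (log2 fold change 0.49, standard error 0.25, adjusted p = 0.375, edgeR). All 3 genes overlapped with the untreated mice. The doses of the drugs differ, so these values stand side by side and the drugs were not compared.

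*Pecam1* was at 32.1 and 32.4 CPM with proglumide and 30.1 and 32.3 CPM with lorglumide, *Cdh5* at 16.6 and 15.68 and at 15.6 and 15.1 CPM, and *Tek* at 9.06 and 8.55 and at 9.12 and 8.83 CPM. These 3 genes varied little among the treated mice (1.08-fold, 1.10-fold and 1.06-fold). *Plvap* was at 19.0 and 21.1 CPM with proglumide and 22.1 and 24.9 CPM with lorglumide, and *Gpihbp1* at 4.71 and 3.64 and at 2.67 and 4.79 CPM. *Lyve1* was at 18.1 and 9.88 CPM with proglumide and 8.87 and 9.03 CPM with lorglumide (log2 fold change against untreated mice -0.94, standard error 0.39, adjusted p = 0.311, edgeR). The 6 macrophage markers had negative fold changes here too (median log2 fold change -1.22), each at an unadjusted p under 0.05 and 0 called (edgeR). Of 10 mural markers, of the pericytes and smooth muscle that sheathe vessels, 6 had negative fold changes and 0 were called, with 4 at an unadjusted p under 0.05, namely *Kcnj8* (-0.98), *Pdgfrb* (-0.96), *Cspg4* (-0.80) and *Notch3* (-0.72). With *Adipoq* as a covariate, edgeR called *Icam2* and *Lyve1* lower in treated mice (for *Lyve1*, log2 fold change -0.82, adjusted p = 0.0316), 2 of the 38 genes beside 1.95% of all genes lower in that fit. The macrophage markers summed to 48.5 to 376.7 CPM in untreated and 57.9 to 134.3 CPM in treated *Lep*(ob/ob) mice, and the 10 mural markers to 75.7 to 184.0 and 94.1 to 125.9 CPM. None of the 16 was at 0 in all mice of a group, and their part in these values was not tested. The 8 acinar markers summed to 147400 to 558900 CPM in untreated and 71510 to 220900 CPM in treated mice, with 0 of 8 called, and their part was not tested either.

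Against lean WT mice, 1 of the 38 genes was lower in CCKRi-treated mice and 0 were higher, with 1.35% and 4.22% of all genes called in these directions (edgeR). At an unadjusted p under 0.05, 6 were lower and 0 higher, beside 995 and 1282 of all 13660 genes, and DESeq2 called 2 lower, *Kdr* and *Clec14a*, among 1064 genes it called in all. The gene called by edgeR was *Clec14a*, a C-type lectin of vessels, with 5.92, 7.55, 7.29 and 8.83 CPM in treated mice and 11.3 and 11.8 CPM in WT mice of the same batch (log2 fold change -0.56, standard error 0.15, adjusted p = 0.0392, edgeR). Fitted within batch B alone, which holds all treated mice, the log2 fold change was -0.64 (standard error 0.20, adjusted p = 0.271, edgeR) and the call was lost. The WT mice of batch A had 6.75 to 7.77 CPM, which overlapped with treated mice. *Bcl6b* was higher than in WT, as the only one of the 35 further genes (log2 fold change 1.23, standard error 0.33, adjusted p = 0.0343, edgeR).

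**Figure D3:**
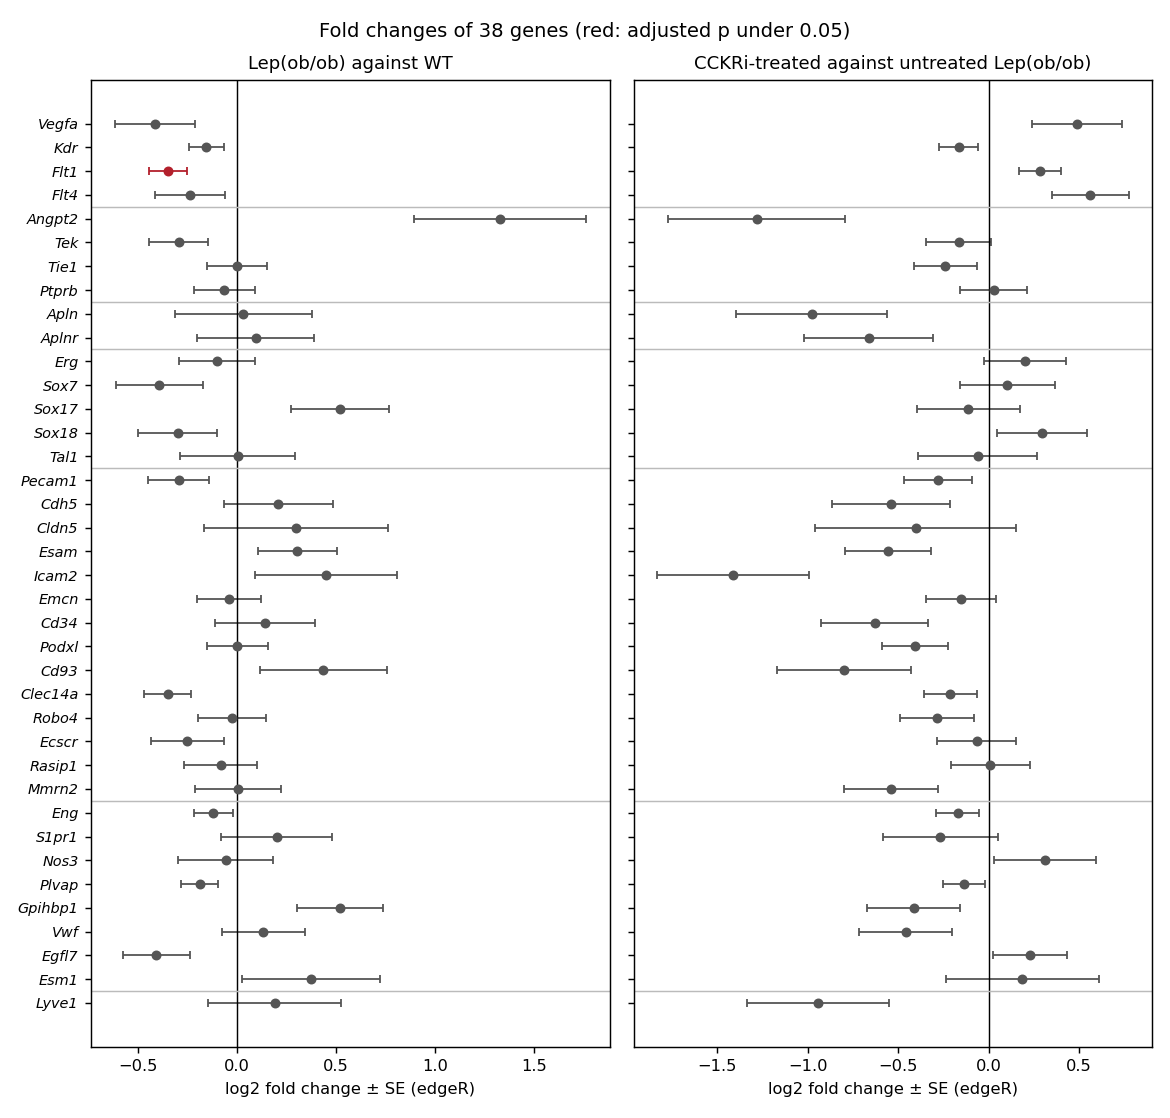
Log2 fold change with its standard error (edgeR) for each of the 38 genes, grouped by role, for *Lep*(ob/ob) against WT mice on the left and CCKRi-treated against untreated *Lep*(ob/ob) mice on the right. Red marks an adjusted p under 0.05, which *Flt1* alone had on the left and 0 genes had on the right.

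The batches were compared across WT and *Lep*(ob/ob) mice with group in the model. In batch B, 7 of the 38 genes were higher and 7 lower, against 35.7% of all genes called in either direction (edgeR). *Erg*, an ETS transcription factor of endothelial cells, had the largest difference, 1.32 on the log2 scale (standard error 0.19, adjusted p = 0.000182, edgeR), and *Vwf*, von Willebrand factor, the largest in the other direction, -1.07 (standard error 0.22, adjusted p = 0.00172). *Vegfa* (0.78), *Lyve1* (1.14) and *Cd34* (0.80) were higher in batch B, and *Plvap* (-0.74), *Kdr* (-0.42) and *Flt1* (-0.27) were lower. Batch A libraries held 19.2 to 34.5 M counts and batch B libraries 9.87 to 15.9 M, and the part of depth in these differences was not tested. Markers of other cell types differed between the batches too: 5 of 8 acinar and 4 of 10 islet markers were lower in batch B, and 2 of 6 macrophage and 2 of 10 mural markers were higher (edgeR). Of the lymphatic endothelial markers, *Pdpn* was called higher (1.22) and *Reln* lower (-1.13). The part of all these markers was not tested either. The interaction of genotype and batch called 0 of the 38 genes and 0% of all 13189 genes in that fit (edgeR). *Icam2*, *S1pr1*, *Esm1* and *Apln* were at an unadjusted p under 0.05, but were not set against the share of all genes there.

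Fat content was then related to the 38 genes by a slope on log2 CPM of *Adipoq*, fitted for each gene with group and batch in the model. The slope gives the change in log2 level per log2 unit of *Adipoq* among mice of the same group and batch. Of the 38 genes, 21 had a positive slope at an adjusted p under 0.05 and 1 a negative one, against 18.9% and 15.2% of all genes (edgeR). The median slope was 0.16 over the 38 genes and -0.025 over all genes.

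*Lyve1* had a slope of 0.44 (standard error 0.06, adjusted p = 1.35e-05, edgeR) and *Cd93*, a lectin-like receptor of endothelial and myeloid cells, one of 0.41 (standard error 0.06, adjusted p = 1.96e-05). *Cdh5* had a slope of 0.35 (standard error 0.06, adjusted p = 6.97e-05), *Cd34*, a sialomucin of capillaries and of fat progenitors, one of 0.32 (standard error 0.05, adjusted p = 9.65e-05), and *S1pr1*, the receptor for sphingosine-1-phosphate, one of 0.33 (standard error 0.06, adjusted p = 0.000523). The mice behind these slopes are plain in the counts. In *Lep*(ob/ob) mouse 463 with the most *Adipoq*, *Cd93* was at 48.0 CPM, *Cd34* at 82.6 CPM and *S1pr1* at 21.8 CPM, against group medians of 11.8, 34.0 and 8.62 CPM. In CCKRi-treated mouse 69, with the most *Adipoq* of its group, *Cd93* was at 18.0 CPM and *Lyve1* at 18.1 CPM, against at most 12.2 and 9.88 CPM in the other 3 treated mice.

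By role, the slope was positive and called for 4 of 4 angiopoietin and Tie genes, 2 of 2 apelin genes, 10 of 14 junction and surface genes, 4 of 8 signalling and capillary genes and *Lyve1*, but for 0 of 4 VEGF genes and 0 of 5 transcription factors (edgeR). At an unadjusted p under 0.05, 1 of the VEGF genes, *Vegfa*, had a negative slope and 0 of the transcription factors passed. Whether the roles differ from each other was not tested, and among the further pathway genes 5 of 7 transcription factors and 4 of 7 VEGF and Tie ligands and co-receptors had positive called slopes. *Flt1* had a slope of -0.0065 (standard error 0.04), *Kdr* of 0.03 (standard error 0.04) and *Plvap* of -0.01 (standard error 0.04), each with an adjusted p of at least 0.533 (edgeR). Among the 35 further pathway genes, 15 had a positive and 1 a negative called slope, the negative one being *Angpt1* (-0.22, adjusted p = 0.0116). The largest positive slopes were those of *Figf* (0.60), which encodes VEGF-D, the transcription factor gene *Lyl1* (0.57) and *Nrp2* (0.48), a co-receptor for VEGF-C.

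**Figure D4:**
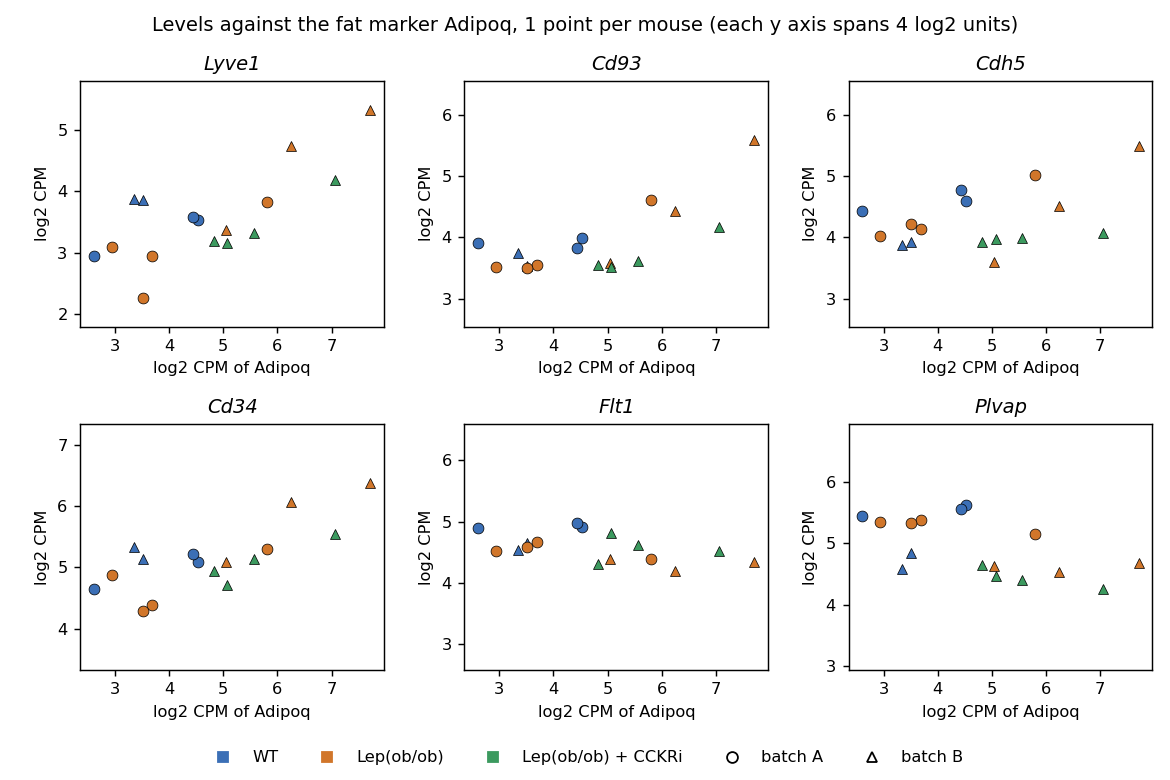
Log2 CPM of 6 genes against log2 CPM of *Adipoq*, 1 point per mouse, with colour for the group and shape for the batch. *Lyve1*, *Cd93*, *Cdh5* and *Cd34* climb to the right with *Lep*(ob/ob) mouse 463 at the far end (log2 CPM of *Adipoq* 7.72), whereas *Flt1* and *Plvap* do not.

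Leaving out 1 mouse changed many of these calls. Without *Lep*(ob/ob) mouse 463, 9 of the 38 genes were called, 8 of them positive, with 15.8% of all genes called in either direction (edgeR). The 13 slopes that lost their call all stayed positive at 48.4% to 78.8% of their size (median 69.9%), and 7 of them were still at an unadjusted p under 0.05. *Esam* had a slope of 0.17 (0.23 with all mice, adjusted p = 0.0560 without mouse 463), *Apln* of 0.30 (0.39, adjusted p = 0.0587) and *Tek* of 0.07 (0.14, adjusted p = 0.383). Without mouse 463 and CCKRi-treated mouse 69, the 2 farthest from the median of *Adipoq*, 5 were called, all positive, namely *Cdh5*, *Cd34*, *Cd93*, *S1pr1* and *Lyve1*, with 7.72% of all genes. These 5 genes were called in each of the 16 fits that left out 1 mouse. In batch A alone 8 genes were called, all positive (8.29% of all genes), and in batch B alone 8, of which 7 were positive (28.3% of all genes). *Cdh5* had a slope of 0.32 in batch A and 0.42 in batch B, and *Lyve1* of 0.39 and 0.59, each called by edgeR. *S1pr1* was not called in batch A (slope 0.22, adjusted p = 0.109).

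Other tissues and cell types moved with *Adipoq* as well. The 6 macrophage markers, the 5 lymph node markers tested, 9 of 10 mural markers and the other 5 adipocyte markers had positive called slopes, and 9 of 10 islet markers negative ones (edgeR). Of 4 lymphatic endothelial markers tested, 1 was positive and 1 negative. The macrophage markers summed to 71.5 to 100.8 CPM in WT, 48.5 to 376.7 CPM in *Lep*(ob/ob) and 57.9 to 134.3 CPM in CCKRi-treated mice. The mural markers summed to 69.2 to 167.9, 75.7 to 184.0 and 94.1 to 125.9 CPM, and the lymph node markers to 3.77 to 27.5, 1.12 to 38.99 and 2.49 to 22.8 CPM in these groups. None of these markers was at 0 in all mice of a group, whereas the lymphatic marker *Ccl21a* was at 0 in every mouse. With the mean of the macrophage markers as a further covariate, 0 of the 38 slopes were called, 0 passed an unadjusted p of 0.05, and 0.315% of all genes had a called slope (edgeR). The slope of *Lyve1* was then 0.01 (standard error 0.11) and that of *Cdh5* 0.08 (standard error 0.12). Both standard errors exceeded their slopes. The macrophage markers themselves moved with *Adipoq*, and the separate parts of fat and macrophage content were not tested.

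Islet content was related in the same way by a slope on log2 CPM of *Ins2*. Here 1 of the 38 genes had a positive called slope and 3 negative ones, against 9.05% and 13.4% of all genes (edgeR). Markers of other cell types moved with *Ins2* too. All 6 adipocyte and all 6 macrophage markers, 5 of 10 mural and 3 of 5 lymph node markers had negative called slopes, and the duct markers *Krt7* (0.39) and *Spp1* (0.29) and the other 9 islet markers positive ones (edgeR). Their part in the endothelial slopes was not tested, beyond the fits with *Adipoq*. The negative slopes were those of *Lyve1* (-0.46, adjusted p = 0.0256), *Cd93* (-0.41, adjusted p = 0.0416) and *Cd34* (-0.32, adjusted p = 0.0438). With 1 mouse left out in turn, *Lyve1* kept its call in 13 of 16 fits but *Cd93* and *Cd34* in 4 of 16 each. With *Adipoq* in the same model these 3 had slopes of -0.03, 0.0056 and -0.0093, none called by edgeR. Among the 35 further pathway genes, 2 had a positive and 8 a negative called slope on *Ins2*. The positive ones were those of *Angpt1* (0.29, adjusted p = 0.0445) and *Pgf* (0.31, adjusted p = 0.0494), both lower in *Lep*(ob/ob) than in WT mice above, and neither was called with *Adipoq* in the model (0.14 and 0.31, edgeR). The negative ones were *Figf*, *Nrp2*, *Ets1*, *Fli1*, *Klf4*, *Lyl1*, *Sh2d3c* and *Acvrl1* (-0.77 to -0.22).

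*Plvap* had a slope of 0.06 (standard error 0.05, adjusted p = 0.420, edgeR) and *Vegfa* of 0.15 (standard error 0.11, adjusted p = 0.373).

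The single positive slope was that of *Esm1*, which encodes endocan, a secreted proteoglycan of sprouting endothelial tip cells (chromosome 13, 113209659 to 113218098, plus strand, 3 merged exons on GRCm38). *Esm1* had 2.43, 2.54 and 3.29 CPM in the WT mice of batch A and 4.57 and 4.38 CPM in those of batch B. In *Lep*(ob/ob) mice it had 5.62, 5.64, 4.67 and 5.30 CPM in batch A and 2.86, 1.87 and 5.56 CPM in batch B. In CCKRi-treated mice it had 1.71 and 4.07 CPM with proglumide and 7.11 and 6.88 CPM with lorglumide. The lowest *Lep*(ob/ob) and treated values were those of mice 463 and 69, which had the least *Ins2* and the most *Adipoq* of their groups.

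The slope of *Esm1* on *Ins2* was 0.71 (standard error 0.11, adjusted p = 0.000432, edgeR). It was called in each of the 16 fits that left out 1 mouse (0.65 to 0.85) and with both markers in the model (0.56, standard error 0.13, adjusted p = 0.0314). With the mean of the islet markers in place of *Ins2* it was 0.81 (adjusted p = 3.98e-05, edgeR). In batch B alone it was 0.67 (adjusted p = 0.0111) and in batch A alone 0.39 (standard error 0.49), where edgeR called 0 of 13192 genes and 0 of the 38 passed an unadjusted p of 0.05. The slope of *Esm1* on *Adipoq* was -0.40 (standard error 0.09, adjusted p = 0.00253, edgeR), with -0.77 in batch B (adjusted p = 0.000209) and -0.0035 in batch A (adjusted p = 0.985). With *Ins2* in the same model it was -0.14 (adjusted p = 0.306).

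**Figure D5:**
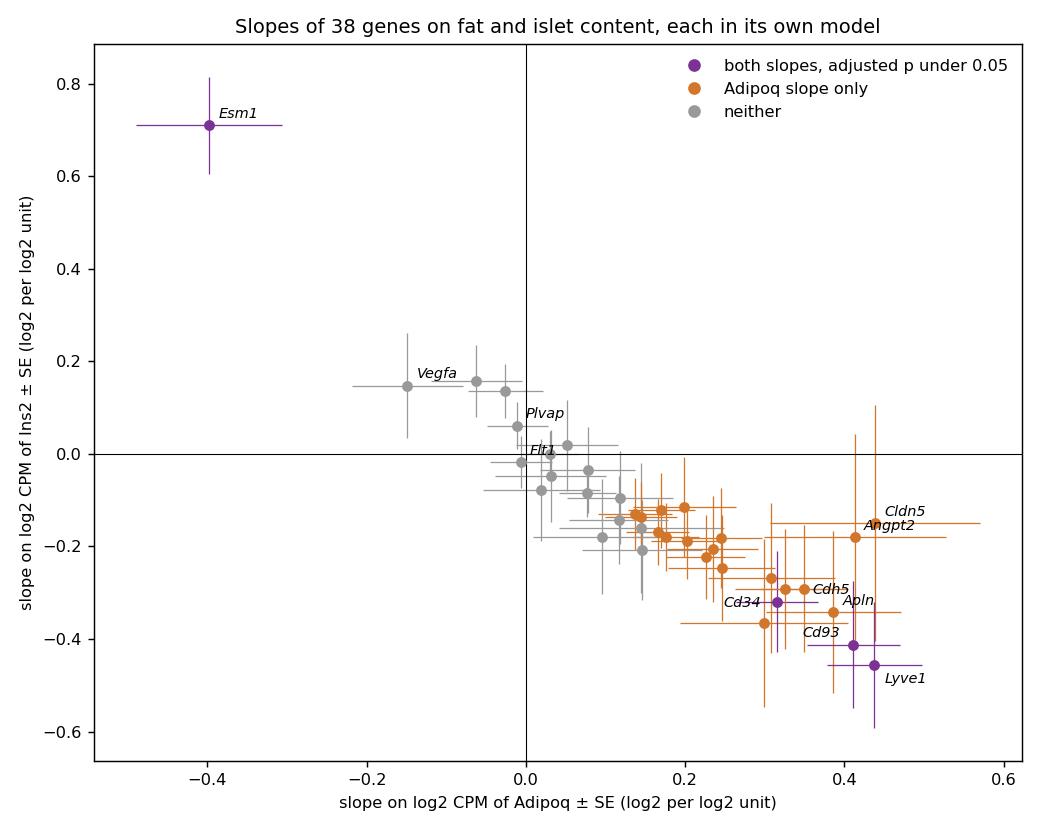
Slope of each of the 38 genes on log2 CPM of *Adipoq* (x axis) and of *Ins2* (y axis), with standard errors, each from its own model with group and batch. Most genes lie at the lower right, *Esm1* lies farthest to the upper left (-0.40 and 0.71), where *Vegfa*, *Emcn*, *Clec14a* and *Plvap* have slopes of the same signs nearer to 0. *Flt1* lies near 0 on both axes.

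Between genotypes, *Esm1* had a log2 fold change of 0.996 in batch A, where all *Lep*(ob/ob) values lay above all WT values (standard error 0.17, adjusted p = 0.00537, edgeR), and of -0.42 in batch B (standard error 0.59, adjusted p = 0.723). It was the 1 gene of the 38 apart and called in this direction in batch A, where 10.7% of all genes were apart and 6.75% called in the same direction. The interaction of genotype and batch was -1.39 for this gene (standard error 0.48, unadjusted p = 0.0127, adjusted p = 0.373, edgeR), which did not pass.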

How the data were processed

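The authors extracted RNA from pulverized pancreas, made strand-specific polyA libraries and, per the labels, trimmed reads (Trim Galore 0.6.7, cutadapt 3.5) and mapped them on mm10 (STAR 2.7.9). The read counter and its annotation are not given in the sources used here. The authors deposited raw read counts for 24411 gene symbols, of which 2 repeat another and 27 look like dates. They also deposited a normalized signal for 17548 genes, which was checked to equal the count divided by 1 size factor per mouse (0.617 to 1.44) and was not tested. Mice were grouped by the labels, and each library is 1 mouse, so p-values measure the spread between mice. The 37 pairs of libraries of 1 group differed by a chi-square per gene of at least 8.57, so none was a duplicate.

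The tests on counts used edgeR 4.0.16 (with limma 3.58.1) under R 4.3.3: filterByExpr, TMM scaling, 1 model with 3 groups and batch, the quasi-likelihood test and Benjamini-Hochberg adjustment at 0.05 over all genes tested. CPM were scaled by TMM, and log2 CPM used a prior count of 2. Slopes added log2 CPM of *Adipoq* or *Ins2* to the model. The fits were tested on simulated data. Exon lengths and positions came from GENCODE vM21 (GRCm38), and promoters from RefSeq, read with Python 3.11.15 and pandas 2.3.3.

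Of the 38 genes, *Rasip1* and *Egfl7* overlap exons of other genes on both strands, and *Nos3* and *Sox17* on the other strand only. The strand setting of the read counter is not given, so the reads of all of these are uncertain.

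The 38 genes, the further pathway genes and the marker lists were chosen with earlier results of these data known. Values by mouse (for *Lep*(ob/ob) mice mostly the lowest, median and highest) are given for *Pecam1*, *Cdh5*, *Kdr*, *Flt1*, *Tek*, *Vegfa*, *Plvap*, *Gpihbp1* and *Lyve1* and for genes called between *Lep*(ob/ob) and WT mice, between treated and untreated mice or in the interaction, and up to 2 further genes per role are named for their rank. Pathway genes are named where called between groups. *Cd93*, *Cd34*, *Clec14a*, *Icam2*, *S1pr1* and *Esm1*, and the pathway genes named for their slopes, were singled out after their values were seen.

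The alternatives were DESeq2 1.42.0, no batch term, RLE scaling, TMM without the 50 most counted genes, no filter, a filter of 10 counts in all mice, fits of just the groups in question, each batch or drug alone, *Adipoq* or *Ins2* as covariates, marker lists in their place, and leaving out each mouse. For the slopes, each batch alone, leaving out the 2 farthest mice and the macrophage covariate were added after seeing the data.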

Additional observations from a re-analysis of the deposited data

Results flagged for a closer look

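Dixon's ratio, the distance from the highest or lowest mouse to the next one over the full range in its group, was computed on log2 CPM for the 38 genes, *Adipoq* and *Ins2*. Of 120 groups, 10 passed the critical value, and chance passes about 1 in 20. The values are not independent, since genes share mice.

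Among *Lep*(ob/ob) mice, mouse 463 was highest for *Pecam1* (59.8 CPM against 28.4 to 39.2 CPM in the others, ratio 0.570) and for *Esam*, a tight junction protein (17.1 against 7.75 to 10.6 CPM, ratio 0.604). Mouse 464 was highest for *Vegfa* (113.3 against 38.2 to 57.2 CPM, ratio 0.628), and mouse 461 was lowest for *Flt4* (1.96 against 3.32 to 4.91 CPM, ratio 0.572).

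Among CCKRi-treated mice, mouse 69 was highest for *Podxl* (36.1 against 30.7 to 31.2 CPM, ratio 0.916), *Cd93* (18.0 against 11.3 to 12.2 CPM, ratio 0.836) and *Lyve1* (18.1 against 8.87 to 9.88 CPM, ratio 0.850). Mouse 74 was lowest for *Pecam1*, by a small margin (30.1 against 32.1 to 32.4 CPM, ratio 0.875).

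Among WT mice, mouse 5489 was highest for *Sox18*, a transcription factor of vessels (6.37 against 4.03 to 4.32 CPM, ratio 0.847), and mouse 59 was lowest for *Ins2* (481 against 650 to 719 CPM, ratio 0.749).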

How the results depend on the processing

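Counts refer to the 38 genes. Between *Lep*(ob/ob) and WT mice, 0 were higher in the reported fit. There was 1 with *Adipoq* as a covariate (*Esm1*; 7.09% of all genes were higher), 3 with *Ins2* (*Esam*, *Cd93*, *Lyve1*; 14.8%), 1 in batch A alone (*Esm1*; 6.75%), 1 with DESeq2 (*Angpt2*; 7.80%), and 0 to 1 with each mouse left out (4.08% to 6.95%; *Angpt2* without WT mouse 5492 or *Lep*(ob/ob) mouse 447 or 464). Of the genes lower, 1 in the reported fit, there were 0 without the batch term, 0 without the filter, 3 with *Adipoq* (*Flt1*, *Tek*, *Pecam1*; 4.89% of all genes were lower), 2 with *Ins2* (*Clec14a*, *Esm1*; 11.1%), 0 with both covariates, 0 in batch B alone (2 at an unadjusted p under 0.05) and 0 to 3 with each mouse left out (1.71% to 3.72%). *Esm1* was thus called in opposite directions with *Adipoq* and with *Ins2* in the model. *Ins2* did not overlap between *Lep*(ob/ob) and WT mice, so their fold changes with *Ins2* in the model are extrapolated. Between CCKRi-treated and untreated mice, 0 genes lower became 2 with *Adipoq* (1.95% of all genes were lower), and 2 with both covariates (2.44%; *Icam2* and *Lyve1* each time), and no gene was higher in any of 29 fits.

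The 22 called *Adipoq* slopes became 8 in batch A, 8 in batch B, 5 without the 2 farthest mice, 0 with the macrophage covariate, and 9 to 22 with each mouse left out. The 4 called *Ins2* slopes became 1 with both slopes in the model, 2 with RLE, 7 with the islet list, 0 in batch A, 1 in batch B, 1 without the 2 farthest mice (WT mouse 59 and CCKRi-treated mouse 69) and 1 to 8 with each mouse left out. *Esm1* was among them in all of these fits but batch A. The lowest counts were without *Lep*(ob/ob) mouse 463 or CCKRi-treated mouse 69 or 74, the highest without CCKRi-treated mouse 76. In the reported *Ins2* fit, 9.05% of all genes had a positive and 13.4% a negative called slope. Apart from batch A, such shares are not given here for the alternative *Ins2* fits, so their counts were not set against all genes. The cause of the shifts in these counts was not tested.

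Of the alternative fold changes of *Pecam1*, *Cdh5*, *Kdr*, *Flt1*, *Tek*, *Vegfa*, *Plvap*, *Gpihbp1* and *Lyve1*, 492 stayed on the same side of the threshold, 7 became called and 14 calls (all of *Flt1*) were lost. Between *Lep*(ob/ob) and WT mice the sign turned in 4 of 28 fits each for *Cdh5* (-0.70 to 0.91) and *Lyve1* (-0.46 to 1.29), and in 1 each for *Pecam1*, *Tek* and *Gpihbp1*. Against WT, treated mice were refitted only by DESeq2 and within batch B. No paired analysis was possible because no mouse number is shared between groups. Low counts limit *Angpt2*, *Cldn5*, *Icam2* and *Tal1*, each with 8 reads or fewer in at least 1 library.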
